A study of Canis lupus familiaris with 12 samples.

Results

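The genes described here break down heme or move, store and sense iron. They were taken from the deposited tables by symbol: HMOX1, HMOX2, BLVRA, BLVRB, TFRC, SLC11A2, FTH1, FTL, SLC40A1 and IREB2. These 10 symbols gave 11 of the 29822 gene rows, because the annotation lists the ferritin heavy chain as the numbered copies FTH1_1 and FTH1_2. All 11 rows had enough reads to be among the 13358 genes tested. RNA was measured in dog peripheral blood mononuclear cells (PBMCs, the lymphocytes and monocytes of blood) that came from healthy male beagles and were kept in culture medium for 24 h. The 4 groups were ConA+ALA, which received the T cell mitogen concanavalin A (ConA, a lectin of the jack bean) at 0.5 µg/ml and 5-aminolevulinic acid (ALA, the first dedicated precursor of heme) at 1.0 mM, ConA alone and ALA alone at those concentrations, and untreated cells. Each group holds 3 libraries numbered 1 to 3 in the sample titles. Nothing in the labels ties a number to its own dog, so the p-values describe the variation among these libraries and may cover technical variation only.

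Heme oxygenases open the heme ring and release iron, carbon monoxide and biliverdin, which biliverdin reductase A turns into bilirubin. Cells take up transferrin-bound iron through the transferrin receptor, move it out of the endosome with SLC11A2, store it in ferritin shells of heavy and light chains, and export it through ferroportin (SLC40A1), while IREB2, also called IRP2, binds iron-responsive elements in messenger RNAs such as those of ferritin and the transferrin receptor when iron is low. In the body, macrophages that clear old red cells rely on the breakdown and export steps, and dividing lymphocytes on the uptake step.

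The libraries held 13390692 to 21517099 exon reads, of which 93.6 to 95.0% the authors counted as unique. Levels below are CPM, exon counts relative to library sizes scaled by edgeR's TMM method, or the deposited TPM where genes are compared with each other. Reads of mitochondrial genes made up 3.59 to 4.82% of exon reads in the 4 libraries numbered 1 and 11.8 to 23.3% in the other 8. Libraries with the same number deviated together from their group means. A second model with the number as a block is therefore given where it changes a call. A gene is called changed at a Benjamini-Hochberg adjusted p under 0.05 over all genes tested. In bulk RNA, fewer cells of a type and less RNA per cell cannot be told apart.

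Per unit of transcript length the ferritin rows were far above the others. The median over the 12 libraries was 8932 TPM for FTH1_2, 6142 TPM for FTL and 2642 TPM for FTH1_1. The ferritin rows together took 0.770 to 2.23% of all exon reads. The enzymes followed, with medians of 135 TPM for BLVRB, 61.1 TPM for HMOX1, 24.8 TPM for HMOX2 and 22.1 TPM for BLVRA. IREB2 had a median of 29.6 TPM, TFRC 14.6 TPM, SLC11A2 7.41 TPM and SLC40A1 1.41 TPM. The lowest FTH1_1 level, 1408 TPM, was above the highest of BLVRB, 491 TPM. All other neighbours in the order of medians overlapped in range, as where IREB2 lay between 23.0 and 36.8 TPM and HMOX2 between 16.7 and 60.6 TPM. The ratio of the highest to the lowest TPM was 22.9 for SLC40A1, 22.0 for TFRC and 14.8 for HMOX1, against 1.60 for IREB2.

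**Figure D1:**
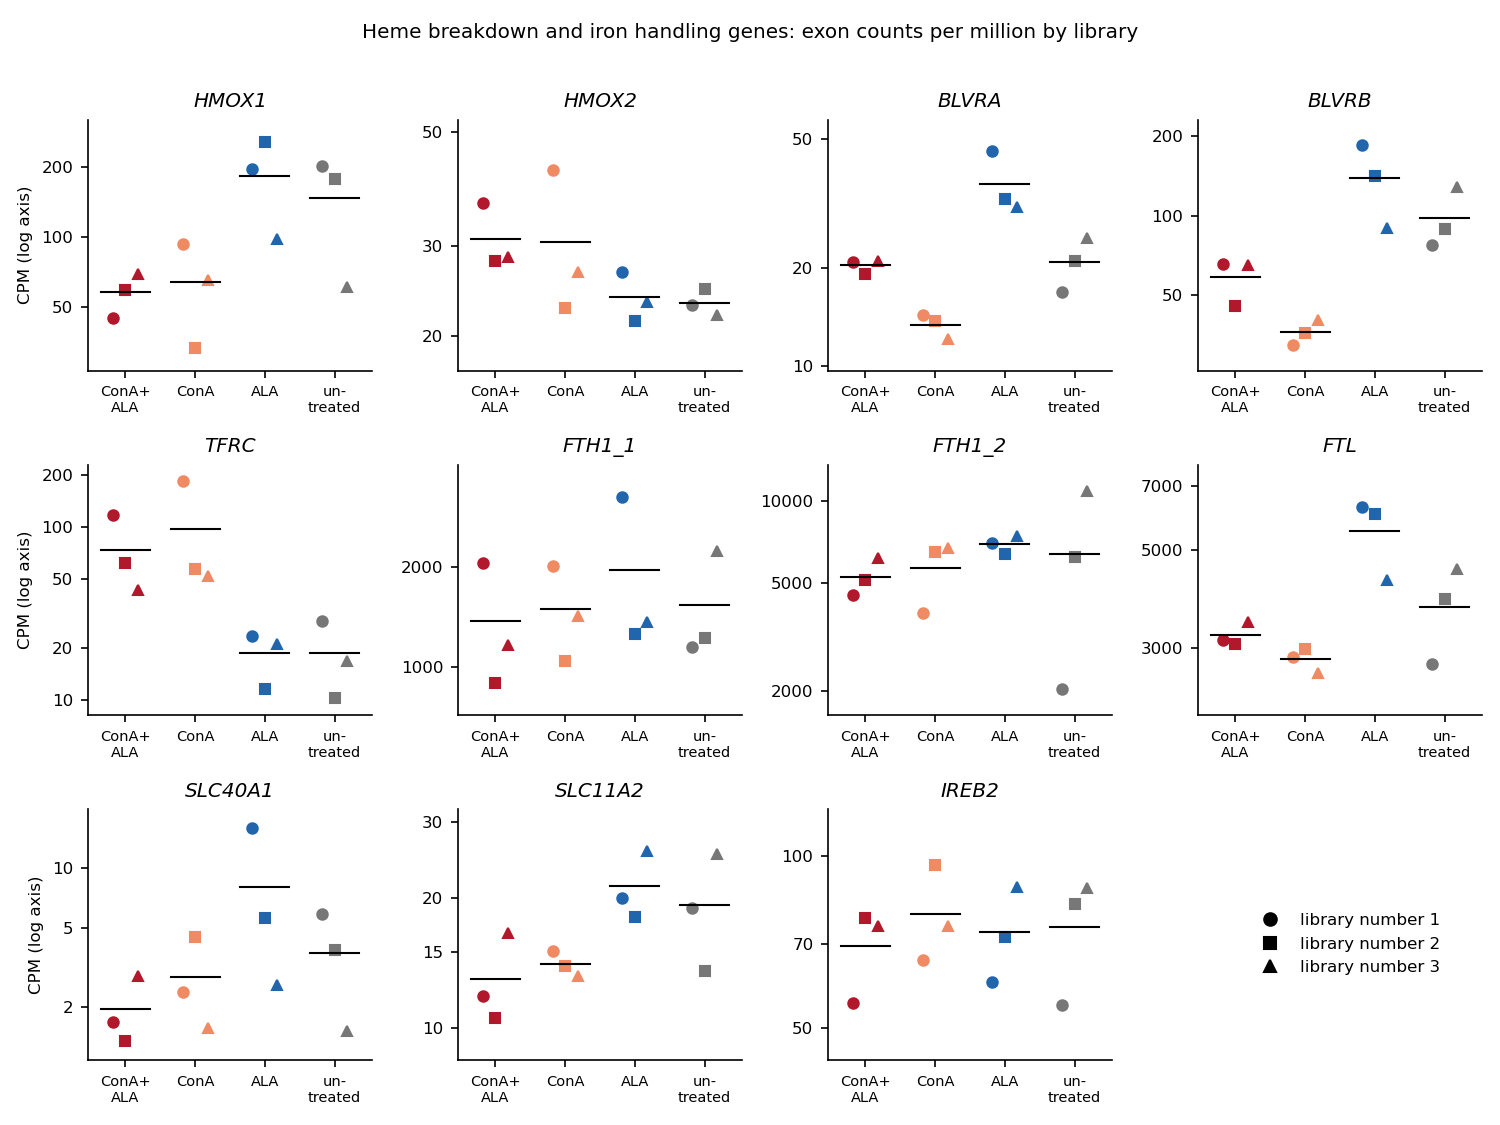
CPM from exon reads (TMM-scaled, log axis) of the 11 gene rows in each of the 12 libraries; the groups ConA+ALA, ConA, ALA and untreated run from left to right, symbols give the library number and lines the group means. BLVRB and TFRC separate all libraries with ConA from all those without it, while all 4 groups overlap for IREB2.

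The largest fold changes of the rows came where ConA was compared with its absence. ConA alone changed 2 of the 11 rows against untreated cells: TFRC rose and BLVRB fell. Of all genes tested 18.5% were called in that comparison (9.93% higher and 8.57% lower), so 2 of 11 is close to the background. With the number as a block 3 rows were called, BLVRA being the additional fall, against 42.5% of all genes, and DESeq2, with 24.9% of all genes called, also called these 3. In the presence of ALA, ConA+ALA against ALA called BLVRA and BLVRB lower, with 8.12% of all genes called (5.09% higher and 3.03% lower). The blocked model called 5 rows there, TFRC higher and BLVRA, BLVRB, FTL and SLC11A2 lower, against 30.1% of all genes, and DESeq2 called 6 rows against 13.7%. The median log2 fold change of the 11 rows was −0.71 for ConA+ALA against ALA and −0.40 for ConA against untreated cells, beside −0.07 and −0.05 over all genes tested.

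No row passed the test in ALA against untreated cells, in ConA+ALA against ConA, or for ALA averaged over both stimulation states, and none of all genes tested did so (0.0%). At an unadjusted p under 0.05 the rows past it numbered 1, 2 and 2 of 11 in these 3 comparisons. All genes past it numbered 155, 445 and 383, or 1.16, 3.33 and 2.87% of those tested. The median log2 fold change of the rows was 0.32 for ALA against untreated cells, with 10 of 11 above 0, and −0.12 for ConA+ALA against ConA, with 4 of 11 above 0. In the blocked model 1 row, BLVRA, was called for averaged ALA, with 0.771% of all genes called. It called no row in the separate comparisons of ALA, with 0.0449% of all genes called against untreated cells and 0.554% against ConA. DESeq2 also called BLVRA for averaged ALA, with 59 of all genes (0.442%). For ALA against untreated cells it called 4 genes (0.0299%) and for ConA+ALA against ConA 49 (0.367%), none of them a row described here.

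**Figure D2:**
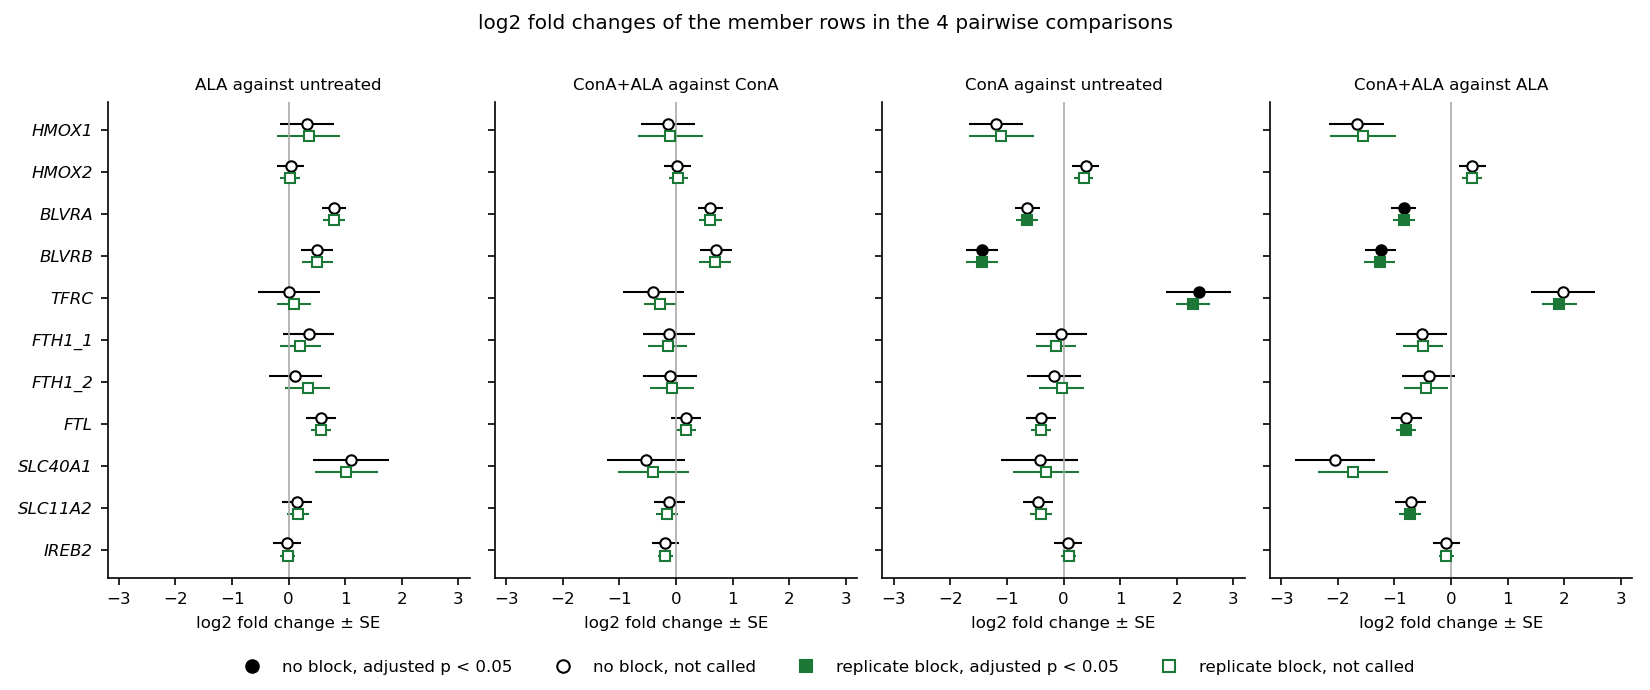
Log2 fold change with 1 SE either side of each of the 11 gene rows in the 4 comparisons of 1 group with another, from edgeR's fit over all genes, without the block (circles) and with the library number as a block (squares); filled symbols passed an adjusted p of 0.05. Without the block TFRC at 2.39 and BLVRB at −1.45 passed in ConA against untreated cells, and BLVRA at −0.84 and BLVRB at −1.24 in ConA+ALA against ALA.

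HMOX1 is the inducible heme oxygenase (ENSCAFG00000001711, CanFam3.1 chromosome 10, 28743795 to 28751773, minus strand, 5 exons). In libraries 1, 2 and 3 it had 44.7, 59.2 and 69.5 CPM in ConA+ALA cells, 93.0, 33.3 and 65.5 CPM in ConA cells, 195, 255 and 98.4 CPM in ALA cells, and 202, 177 and 60.8 CPM in untreated cells. Cells with ConA and ALA lay below all ALA cells, while every other pair of groups set against each other overlapped. ALA against untreated cells gave a log2 fold change of 0.32 ± 0.48 (SE, n = 3 each) with an interval of 2 SE from −0.63 to 1.27, and ConA+ALA against ConA −0.15 ± 0.48 with an interval from −1.10 to 0.81. These intervals leave room for a change of more than 1.5 times in either direction.

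The lower HMOX1 level with ConA did not pass the test. The log2 fold change was −1.66 ± 0.49 for ConA+ALA against ALA (adjusted p = 0.057, edgeR's quasi-likelihood test), lower in all 3 numbers, and −1.20 ± 0.48 for ConA against untreated cells (adjusted p = 0.11). DESeq2 gave an adjusted p of 0.0090 for the first and thus called it, and the blocked model 0.090. That comparison also passed without untreated library 3, ALA library 3, or ConA library 1 or 2, with adjusted p from 0.033 to 0.049. Without untreated library 3, which had the lowest untreated value, ConA against untreated cells reached an adjusted p of 0.034. The constitutive oxygenase HMOX2 (ENSCAFG00000019207, chromosome 6, 36881506 to 36898042) stayed between 21.5 and 42.2 CPM in all 12 libraries. The ConA+ALA libraries, at 36.4, 28.0 and 28.5 CPM, lay above all ALA libraries, at 26.7, 21.5 and 23.3 CPM, with a log2 fold change of 0.38 ± 0.24 that was not called. It was 0.39 ± 0.24 for ConA against untreated cells and 0.04 ± 0.24 for ALA against untreated cells, neither called. HMOX1 was 0.944 to 9.14 times as abundant as HMOX2 per transcript length.

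The files also count intron reads, which come from RNA not yet spliced or from other unspliced material, and these were examined after the exon results were seen. Reads within introns made up 5.90, 4.12 and 6.32% of the HMOX1 gene reads in ConA+ALA libraries 1, 2 and 3, against 2.30, 4.11 and 2.23% in ConA libraries. They made up 3.67, 3.27 and 8.72% in ALA libraries, against 2.92, 1.26 and 1.23% in untreated libraries. The libraries with ALA did not overlap those without it in either comparison, and the exact permutation test gave a 2-sided p of 0.1 in both, the smallest that 3 against 3 allows. These were 2 of 44 such exact tests over the 11 rows, with adjusted values of 0.943. The same separation was found for IREB2 in ConA+ALA against ConA and, in the lower direction, for FTH1_2 in ConA+ALA against ALA. The HMOX1 shares rest on 13 to 180 intron reads per library. The share over all genes was higher by 2.75 percentage points with ALA in unstimulated cells (3 of 3 numbers) and by 0.54 points in ConA cells (2 of 3), and its part in the result was not tested. Tested among all genes, HMOX1 intron reads had a log2 fold change of 0.96 ± 0.51 for averaged ALA, higher in 6 of 6 pairs, with an adjusted p of 1.00 in edgeR without the block and 0.17 with it.

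Biliverdin reductase A (BLVRA, ENSCAFG00000003476, chromosome 18, 6426255 to 6495647, minus strand, 12 exons) was higher with ALA in every pair of libraries of the same number. It had 20.9, 19.1 and 21.0 CPM in ConA+ALA libraries, 14.3, 13.7 and 12.1 CPM in ConA libraries, 45.8, 32.5 and 30.8 CPM in ALA libraries, and 16.8, 21.1 and 24.7 CPM in untreated libraries. ALA cells did not overlap untreated cells, and ConA+ALA cells did not overlap ConA cells. The log2 fold change was 0.80 ± 0.22 for ALA against untreated cells and 0.61 ± 0.22 for ConA+ALA against ConA. Averaged over both states it was 0.70 ± 0.15, a 1.63-fold difference, with an interval of 2 SE from 0.40 to 1.01. That average did not pass in edgeR without the block (adjusted p = 0.33) and passed with the block at 0.70 ± 0.14 (adjusted p = 0.029) and in DESeq2 (adjusted p = 0.0072). The blocked call was lost without ALA library 1 or 2, any ConA library or any ConA+ALA library, with adjusted p up to 0.11, and without number 1, 2 or 3 (0.21, 0.22 and 0.055).

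Intron reads of BLVRA showed the same direction. They amounted to 67.6, 69.5 and 94.0 intron CPM (intron counts, scaled in the same way) in ConA+ALA libraries, 34.0, 40.7 and 67.6 in ConA libraries, 88.9, 85.3 and 115 in ALA libraries, and 39.5, 56.0 and 78.0 in untreated libraries. ALA libraries lay above all untreated ones, and the lowest ConA+ALA library was level with the highest ConA library. The averaged log2 fold change was 0.72 ± 0.22 without the block (adjusted p = 1.00) and 0.76 ± 0.10 with it (adjusted p = 0.0018, edgeR). The blocked call held in 12 of 12 fits that left out 1 library, with adjusted p up to 0.010, and 0.699% of the 15305 genes with enough intron reads were called, against 0.0327% without the block. With the block, ConA+ALA against ConA alone gave 0.74 ± 0.15 (adjusted p = 0.024, with 0.712% of genes called, against 0.0131% without the block), and ALA against untreated cells 0.78 ± 0.15 (adjusted p = 0.096, with 0.0327% called). The blocked call for ConA+ALA against ConA was lost without ConA library 1 or 2 or any ConA+ALA library, with adjusted p up to 0.21.

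**Figure D3:**
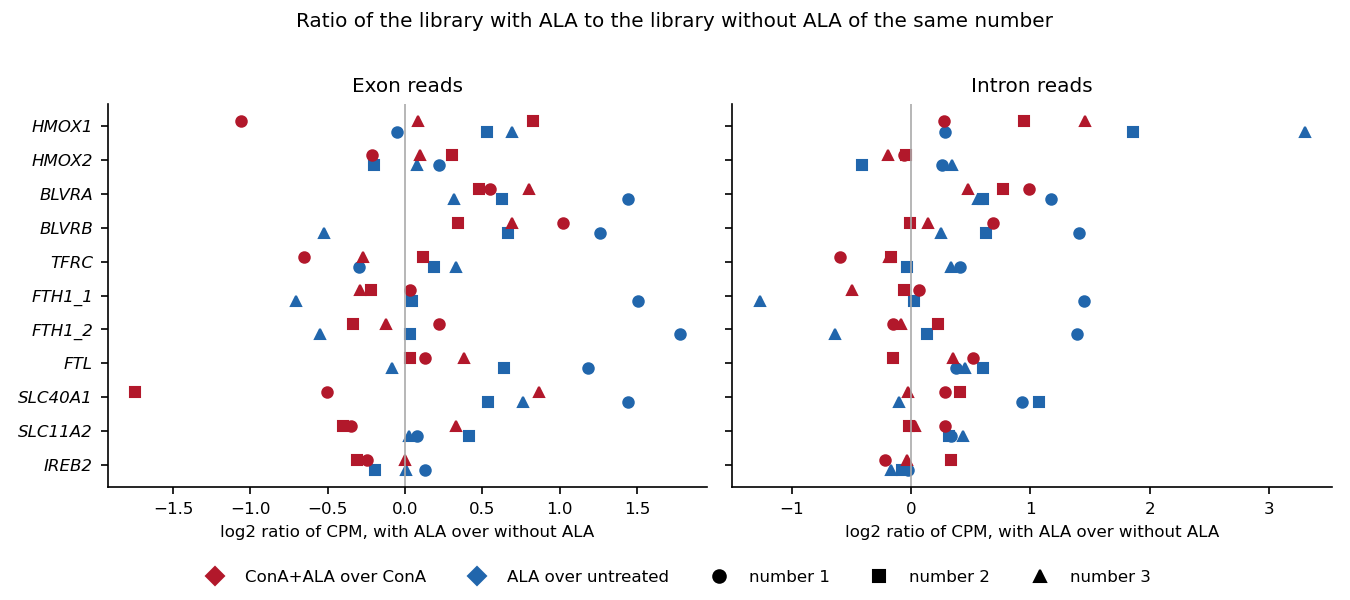
Log2 ratio of CPM with ALA to CPM without it for each gene row and library number, from exon reads (left) and intron reads (right); red symbols are ConA+ALA over ConA and blue symbols ALA over untreated cells. All 6 BLVRA ratios lie above 0 in both panels and 5 of 6 BLVRB exon ratios do, while the HMOX1 ratios fall on both sides of 0 for exon reads and above 0 for intron reads.

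Biliverdin reductase B (BLVRB, ENSCAFG00000005338, chromosome 1, 113244503 to 113258073, plus strand, 7 exons), a reductase of flavins that also acts on biliverdin, fell with ConA. It had 65.4, 45.5 and 64.6 CPM in ConA+ALA libraries, 32.2, 35.8 and 39.9 CPM in ConA libraries, 185, 141 and 89.4 CPM in ALA libraries, and 77.3, 88.9 and 128 CPM in untreated libraries. All 6 libraries with ConA lay below all 6 without it. ConA against untreated cells gave −1.45 ± 0.28 (adjusted p = 0.0048), a level 0.367 times the untreated one, and the adjusted p stayed at or under 0.020 in all fits that left out 1 library, though not in the fit without number 2 (0.12). ConA+ALA against ALA gave −1.24 ± 0.28 (adjusted p = 0.020), and this call was lost without ALA library 1 or 2 or any of the 3 ConA+ALA libraries, with adjusted p from 0.051 to 0.092, and without any number, with adjusted p up to 0.36. It was also lost with total gene reads (exon and intron together, adjusted p = 0.054) and with only the compared groups in the fit (0.051). Among blocked fits that left out 1 library or number, it was lost only without number 2 (adjusted p = 0.14, edgeR). The blocked BLVRB call in ConA against untreated cells was not lost in any of those fits.

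BLVRB levels with ALA were above those without it in 5 of 6 pairs. The log2 fold change was 0.70 ± 0.28 in ConA cells, 0.50 ± 0.28 in cells without ConA, and 0.60 ± 0.20 averaged (unadjusted p = 0.010, adjusted p = 1.00 in edgeR). ALA number 3 was the pair that went the other way. BLVRA also had lower levels with ConA. ConA+ALA against ALA gave −0.84 ± 0.22 (adjusted p = 0.037), a call lost without untreated library 2, ALA library 1 or 2, ConA library 3 or any ConA+ALA library, with adjusted p up to 0.17, and without any number, with adjusted p up to 0.36. This call too was lost with total gene reads (adjusted p = 0.19) and with only the compared groups (0.071), and it was lost with no filter on low counts (0.073). Among blocked fits that left out 1 library or number, it was lost without ALA library 1 (adjusted p = 0.057, edgeR). It was also lost there without number 1 or 2 (0.062 and 0.054) and in no other such fit. ConA against untreated cells gave −0.64 ± 0.22 (adjusted p = 0.062) and passed with the block (adjusted p = 0.015) and in DESeq2 (adjusted p = 0.033). The blocked call was lost without untreated library 2 or 3, ConA library 3, or number 2 or 3, with adjusted p from 0.062 to 0.14.

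TFRC encodes the transferrin receptor (ENSCAFG00000012941, chromosome 33, 29208609 to 29238242, minus strand, 19 exons). It had 116, 61.8 and 43.0 CPM in ConA+ALA libraries, 183, 57.1 and 51.9 CPM in ConA libraries, 23.4, 11.6 and 21.0 CPM in ALA libraries, and 28.8, 10.2 and 16.8 CPM in untreated libraries. Every library with ConA was above every library without it, and library 1 was the highest of its group throughout. The rise was 2.39 ± 0.57 for ConA against untreated cells (adjusted p = 0.014), a 5.24-fold higher level, and was lost without untreated library 2 (adjusted p = 0.058) or ConA library 1 (adjusted p = 0.051) and without number 2 (0.13) or 3 (0.079). ConA+ALA against ALA gave 1.98 ± 0.56, with an adjusted p of 0.052 without the block and 0.0011 with it. The blocked calls of TFRC in both comparisons were not lost in any fit that left out 1 library or number.

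Adding ALA gave no detectable TFRC difference. Without the block the log2 fold change was −0.40 ± 0.54 for ConA+ALA against ConA, with an interval of 2 SE from −1.49 to 0.68. For ALA against untreated cells it was 0.01 ± 0.55, with an interval from −1.09 to 1.10. Fits that left out 1 library or number gave log2 fold changes from −0.90 to 0.44 for ConA+ALA against ConA. For ALA against untreated cells they gave −0.29 to 0.47. With the block these ranges were −0.54 to 0.03 and −0.31 to 0.35. They are ranges of point values and not intervals of 2 SE. Intron reads of TFRC also rose with ConA alone, by 1.89 ± 0.50 (adjusted p = 0.041), where 7.3% of genes were called by intron reads, or 32.5% with the block. That call was lost without untreated library 1 or 2 or ConA library 1 or 3, with adjusted p up to 0.14. With the block its adjusted p was 9.37e-06 in edgeR, and it held in 12 of 12 fits that left out 1 library. Their rise in ConA+ALA against ALA, 1.30 ± 0.49, passed only with the block (adjusted p = 0.00038, against 0.25 without it), where 20.8% of genes were called. Summed CPM of the 7 of 8 listed cycling markers found in the tables was 542 to 657 in ConA+ALA libraries, 818 to 866 in ConA libraries, 153 to 315 in ALA libraries and 144 to 231 in untreated libraries, and its part in the TFRC result was not tested.

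SLC11A2, the iron transporter DMT1 (ENSCAFG00000007902, chromosome 27, 3787855 to 3822672, plus strand, 20 exons), was called without the block by its intron reads but not by its exon reads. Its exon reads gave 11.9, 10.5 and 16.6 CPM in ConA+ALA libraries, 15.1, 13.95 and 13.2 CPM in ConA libraries, 20.03, 18.1 and 25.7 CPM in ALA libraries, and 18.9, 13.6 and 25.2 CPM in untreated libraries. ConA+ALA cells lay below all ALA cells, but ConA and untreated cells overlapped. The exon log2 fold change was −0.71 ± 0.27 for ConA+ALA against ALA (adjusted p = 0.14, or 0.012 with the block, a call lost without ConA+ALA library 1 or 2 or number 1 or 2, at up to 0.10) and −0.45 ± 0.27 for ConA against untreated cells (adjusted p = 0.28).

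The SLC11A2 intron reads gave 42.2, 45.2 and 59.7 intron CPM in ConA+ALA libraries, 34.6, 45.6 and 58.3 in ConA libraries, 95.0, 129 and 155 in ALA libraries, and 75.1, 103 and 114 in untreated libraries. Libraries with ConA did not overlap those without it. The intron reads fell in both comparisons of ConA. ConA+ALA against ALA gave −1.36 ± 0.27 (adjusted p = 0.030, with 1.52% of genes called), a call lost without any 1 of the 6 compared libraries, with adjusted p up to 0.14. ConA against untreated cells gave −1.08 ± 0.27 (adjusted p = 0.033), a call lost without untreated library 2 or 3, ALA library 2, ConA library 1 or 2, or ConA+ALA library 2, with adjusted p up to 0.11. With the block the adjusted p was 2.11e-06 for ConA+ALA against ALA and 4.36e-06 for ConA against untreated cells. Both blocked calls held in 12 of 12 fits that left out 1 library, with adjusted p up to 7.27e-05 and 9.36e-05 (edgeR). The intron share of SLC11A2 gene reads was 66.9 ± 8.45% in ConA+ALA cells and 76.7 ± 9.34% in ALA cells, and 62.0 ± 14.8% in ConA cells and 72.4 ± 10.6% in untreated cells (SD, n = 3 each). It was lower with ConA in 3 of 3 numbers in both comparisons, with exact permutation p of 0.3 and 0.4, so the exon and intron changes were not shown to differ. The share over all genes differed by −5.50 and −3.29 percentage points, also lower in 3 of 3 numbers, and its part in the result was not tested. Neither exon nor intron reads of SLC11A2 passed the test for ALA.

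**Figure D4:**
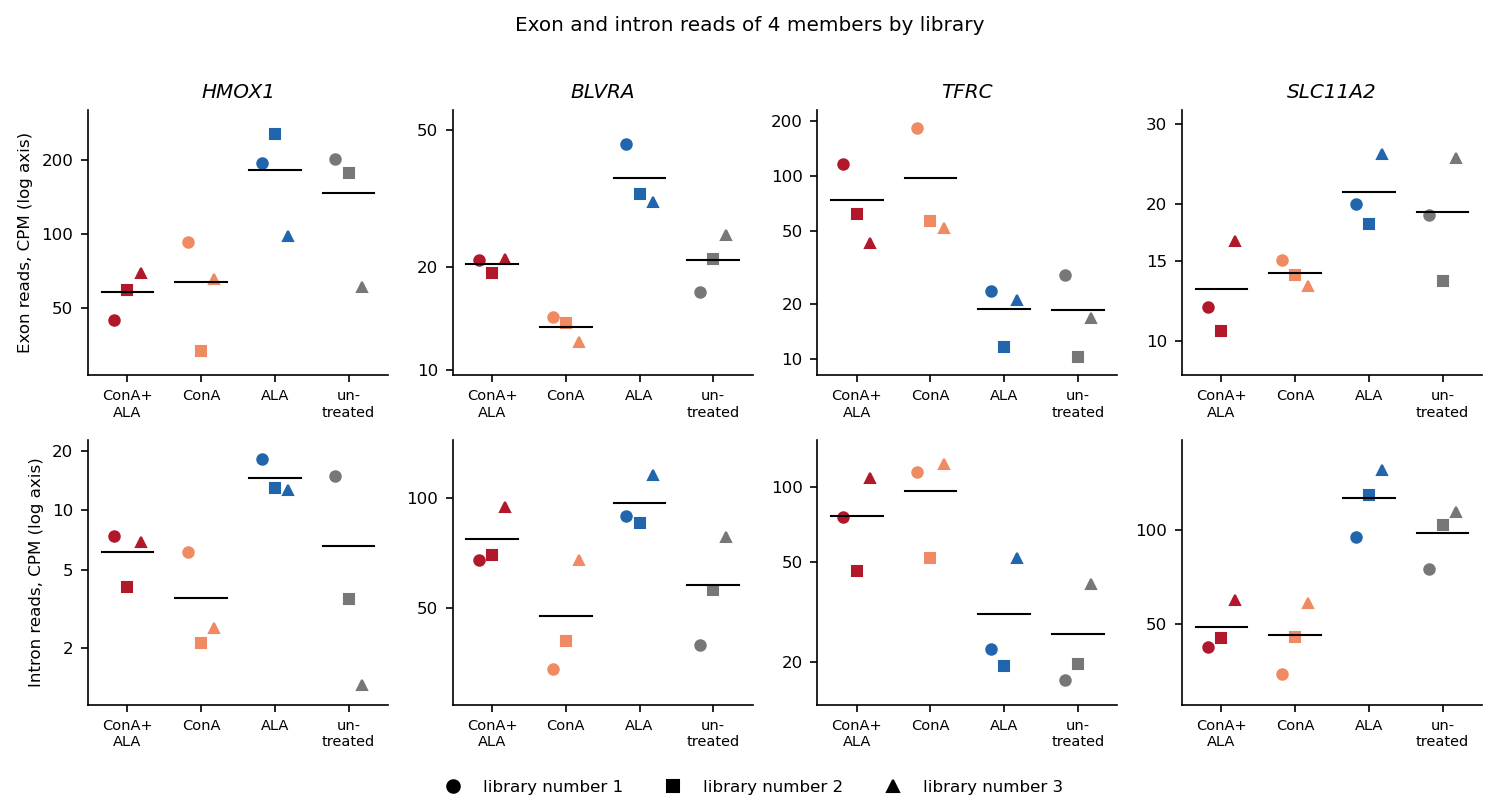
CPM from exon reads (upper row) and intron reads (lower row), both TMM-scaled on log axes, of HMOX1, BLVRA, TFRC and SLC11A2 in each library, with ConA+ALA, ConA, ALA and untreated cells from left to right, the library number as the symbol and lines for group means. For SLC11A2 the exon values of ConA and untreated cells overlap, while the intron values, 34.6 to 58.3 in ConA cells and 75.1 to 114 in untreated cells, do not.

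Most exon reads of the ferritin rows were not among those the authors counted as unique. The light chain row FTL (ENSCAFG00000003861, chromosome 1, 107418458 to 107419923, minus strand, 4 exons) had unique shares of 24.4, 26.6 and 25.0% in ConA+ALA libraries, 21.3, 27.0 and 24.1% in ConA libraries, 22.3, 27.1 and 25.6% in ALA libraries, and 19.1, 26.3 and 24.8% in untreated libraries. Library 1 had the lowest share in every group. The heavy chain row FTH1_2 (ENSCAFG00000015901, chromosome 18, 54466023 to 54468732, plus strand, 7 exons) had 35.4 to 45.2% unique reads, and FTH1_1 (ENSCAFG00000030465, chromosome 11, 39037318 to 39038079, plus strand, 2 exons) 24.7 to 37.0%. The other 8 rows had 100% unique exon reads in every library.

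The heavy chain rows also differed in their junction and intron reads. Reads across exon junctions made up 45.2 to 54.7% of exon reads in FTH1_2 and 46.4 to 48.5% in FTL, but 1.64 to 2.96% in FTH1_1. Of the FTH1_1 gene reads 32.7 to 44.4% lay in its intron, against 0.902 to 2.74% for FTH1_2. The exons cover 711 of the 762 bases of FTH1_1, so its intron is shorter than a read and these shares cannot be read as ordinary splicing. The files do not say whether FTH1_1 is a gene of its own or a copy of another, so it is uncertain what its levels measure. The unique share did not separate the groups. The mean FTL share was 25.3 ± 1.15% in ConA+ALA cells and 24.1 ± 2.85% in ConA cells, and 25.0 ± 2.45% in ALA cells and 23.4 ± 3.80% in untreated cells (SD, n = 3 each). Over 20 exact 2-sided permutation tests of unique shares and of the FTH1_2 to FTL ratio, p was at least 0.2 and the adjusted value at least 0.933, where the smallest p possible is 0.1. These tests did not use the library numbers. By number, the FTH1_2 to FTL ratio in TPM was higher by 0.33, 0.62 and 0.055 in ConA+ALA against ALA and by 0.61, 0.56 and 0.15 in ConA against untreated cells, thus higher with ConA in 3 of 3 numbers in both.

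**Figure D5:**
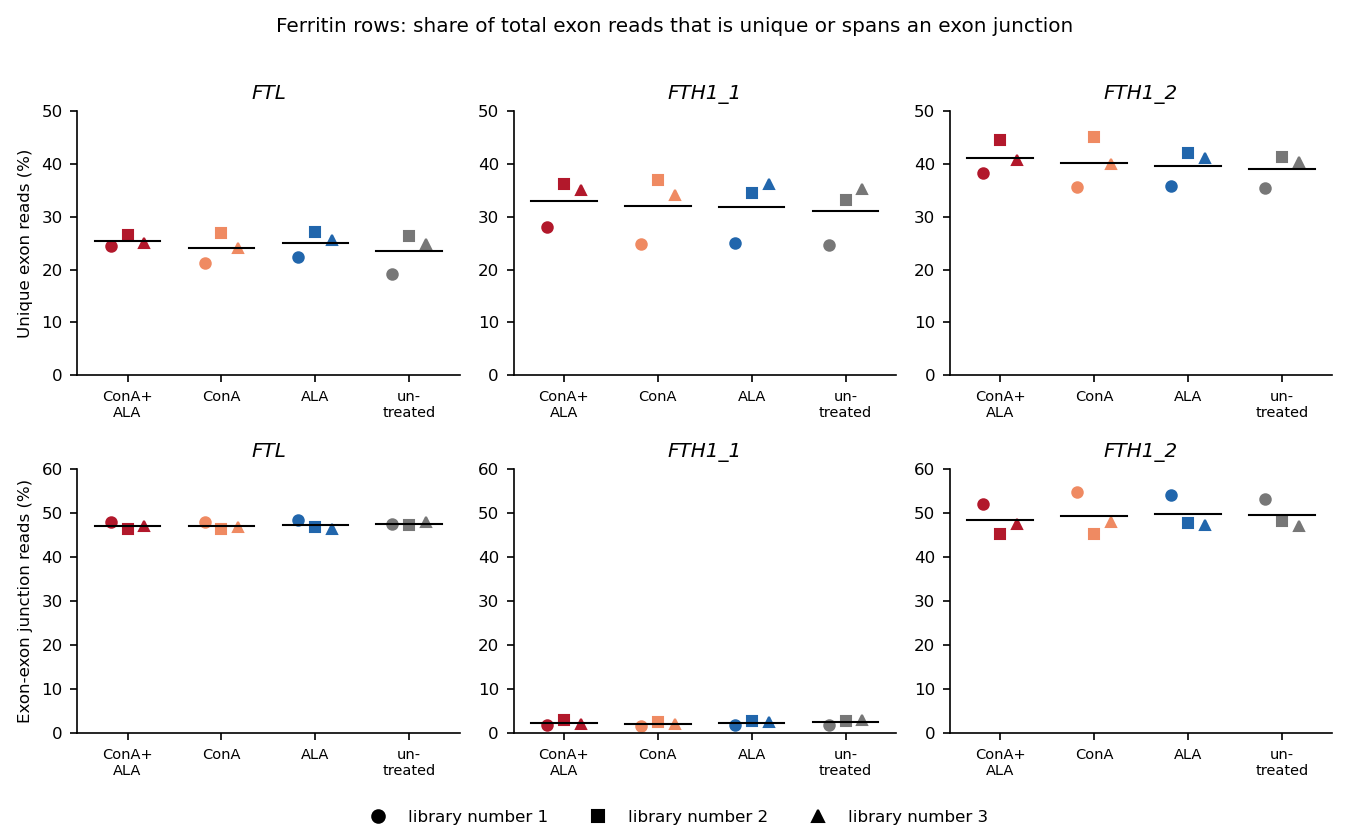
Share of the exon reads of FTL, FTH1_1 and FTH1_2 that is unique (upper row) or spans an exon junction (lower row), in percent, per library, with ConA+ALA, ConA, ALA and untreated cells from left to right, the library number as the symbol and lines for group means. The unique share of library 1 is lowest in each group for all 3 rows, and the junction share of FTH1_1 is at most 2.96%, against at least 45.2% for the other rows.

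FTL had 3119, 3058 and 3436 CPM in ConA+ALA libraries, 2856, 2988 and 2634 CPM in ConA libraries, 6267, 6058 and 4271 CPM in ALA libraries, and 2757, 3882 and 4529 CPM in untreated libraries. ConA+ALA cells lay below all ALA cells and above all ConA cells. ConA+ALA against ALA gave −0.79 ± 0.27 (adjusted p = 0.096) and passed with the block at −0.79 ± 0.18 (adjusted p = 0.0042), a call lost without number 2 (0.13). ALA against untreated cells gave 0.57 ± 0.27, with an unadjusted p of 0.053 and an adjusted p of 1.00. From unique reads alone these fold changes of FTL were −0.76 and 0.63. ALA library 3 was the exception among the ALA libraries, with 4271 CPM against 4529 CPM in untreated library 3.

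Neither heavy chain row was called in any comparison with all libraries in the fit. With the block and without untreated library 1, FTH1_1 was called lower in ConA+ALA against ALA (−0.48, adjusted p = 0.027) and in ConA against untreated cells (−0.55, adjusted p = 0.023, edgeR). FTH1_2 had 4520, 5125 and 6175 CPM in ConA+ALA libraries, 3884, 6469 and 6711 CPM in ConA libraries, 7009, 6371 and 7438 CPM in ALA libraries, and 2044, 6228 and 10873 CPM in untreated libraries. The untreated libraries alone spanned the whole range of the 12. Its log2 fold change was −0.11 ± 0.47 for ConA+ALA against ConA and 0.12 ± 0.47 for ALA against untreated cells, with intervals of 2 SE from −1.05 to 0.83 and from −0.82 to 1.06. FTH1_1 lay between 891 and 3262 CPM, with log2 fold changes of −0.12 ± 0.45 and 0.36 ± 0.45 in the same comparisons. The ratio of FTH1_2 to FTL in TPM was 0.736 to 2.53 over the libraries, or 1.36 to 4.203 from unique reads per length.

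SLC40A1, ferroportin, the only known exporter of iron from cells (ENSCAFG00000009343, chromosome 37, 303104 to 368865, minus strand, 11 exons), was the least abundant, with 18 to 384 exon reads per library. It had 1.68, 1.35 and 2.85 CPM in ConA+ALA libraries, 2.39, 4.52 and 1.56 CPM in ConA libraries, 15.9, 5.63 and 2.56 CPM in ALA libraries, and 5.85, 3.88 and 1.51 CPM in untreated libraries. ALA library 1 was far above the rest, and the groups overlapped. ConA+ALA against ALA gave −2.05 ± 0.71 (adjusted p = 0.10 in edgeR, 0.048 in edgeR without ALA library 3, and 0.029 in DESeq2), and ALA against untreated cells 1.10 ± 0.68 with an interval of 2 SE from −0.25 to 2.46. Without ALA library 1 these log2 fold changes were −1.07 (adjusted p = 0.44, edgeR) and 0.12. With total gene reads ConA+ALA against ALA gave −1.02. Its exon reads are few for a firm value, and a gene on the other strand that overlaps it (ENSCAFG00000044884) had 0 exon reads.

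IREB2 (ENSCAFG00000001766, chromosome 13, 38400591 to 38441015, minus strand, 23 exons) varied least. It had 55.4, 77.7 and 75.4 CPM in ConA+ALA libraries, 65.7, 96.5 and 75.3 CPM in ConA libraries, 60.1, 72.2 and 88.1 CPM in ALA libraries, and 54.9, 82.5 and 87.7 CPM in untreated libraries. All 4 groups overlapped, and library 1 was the lowest of each. The log2 fold change was 0.08 ± 0.24 for ConA against untreated cells, with an interval of 2 SE from −0.41 to 0.56, and −0.03 ± 0.24 for ALA against untreated cells, from −0.51 to 0.45.

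Whether ALA acted differently with ConA than without it was tested by the interaction. No row passed, and none of all genes tested did (0.0%), while DESeq2 called 4 genes (0.0299%). In edgeR 222 genes (1.66%) and none of the 11 rows had an unadjusted p under 0.05. The interaction was −1.63 ± 0.97 for SLC40A1, −0.47 ± 0.67 for HMOX1, −0.41 ± 0.77 for TFRC, −0.19 ± 0.31 for BLVRA and 0.20 ± 0.39 for BLVRB. The interval of 2 SE was from −0.81 to 0.42 for BLVRA and from −1.82 to 0.88 for HMOX1.

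Of 15 other genes of heme uptake, transport and sensing, 11 were tested. Without the block a single one was called with ConA alone, beside 18.5% of all genes. It was ABCG2, an exporter of porphyrins and heme, which fell at −2.23 ± 0.59 (adjusted p = 0.021, edgeR). That call was lost without untreated library 2, ConA library 1 or 3, or number 2 or 3, with adjusted p up to 0.13. ABCG2 averaged 2.29 ± 1.57 CPM in ConA cells and 10.6 ± 4.54 CPM in untreated cells (SD, n = 3 each). With the block 5 of the 11 were called with ConA, 1 higher and 4 lower, which is close to the 42.5% of all genes. FLVCR2, a membrane transporter once reported to import heme, was the rise at 0.87 ± 0.28 (adjusted p = 0.019, up to 0.12 when 1 library was left out). The falls were ABCG2, LRP1, the receptor for hemopexin-bound heme, at −3.07 ± 0.18, SLC48A1, which moves heme out of lysosomes, at −1.08 ± 0.31, and CD163, the receptor for haptoglobin-bound hemoglobin, at −2.08 ± 0.49. The same 4 genes fell in ConA+ALA against ALA with the block, where 30.1% of all genes were called, and none without it. With 1 library left out, the blocked calls of SLC48A1 and CD163 were lost in both comparisons, with adjusted p up to 0.17 and 0.10 in ConA+ALA against ALA and up to 0.061 and 0.060 in ConA against untreated cells. Those of LRP1 and ABCG2 held in all fits without 1 library, though that of ABCG2 in ConA+ALA against ALA was lost without number 1 or 2 (0.055 and 0.089). For ALA, LRP1 passed in ConA+ALA against ConA only with the block (0.87 ± 0.17, adjusted p = 0.032, against 0.97 ± 0.92 and 1.00 without it). That call was lost without ALA library 2, ConA library 1 or 2, any ConA+ALA library, or number 1 or 2, with adjusted p up to 0.49.

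Of 27 other iron genes, 17 were tested. Without the block 1 rose and 1 fell with ConA alone, beside 18.5% of all genes called. STEAP4, a metalloreductase, rose at 2.10 ± 0.68 (adjusted p = 0.0498, edgeR). HFE, which binds the transferrin receptor, fell at −1.69 ± 0.45 (adjusted p = 0.023, edgeR). The STEAP4 call was lost without untreated library 1 or 2, ALA library 3, ConA library 1 or 3, ConA+ALA library 3 or any number, with adjusted p up to 0.16. The HFE call was lost without untreated library 1 or 2, ConA library 1 or 2, or number 2 or 3, with adjusted p up to 0.30. In ConA+ALA against ALA only 1 was called, beside 8.12% of all genes. SLC39A8, a zinc and iron importer, fell at −2.33 ± 0.61 (adjusted p = 0.037, edgeR). That call was lost without untreated library 2 or 3, ALA library 1, ConA library 3, ConA+ALA library 2 or 3, or number 2 or 3, with adjusted p up to 0.23. With the block 1 rose and 4 fell of the 17 in ConA+ALA against ALA, beside 30.1% of all genes called, and 2 rose and 4 fell in ConA against untreated cells, beside 42.5%. None was called for ALA.

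Of the 9 heme synthesis enzymes none passed without the block. With it 2 of 9 were called in ConA+ALA against ALA, beside 30.1% of all genes, and 4 of 9 in ConA against untreated cells, beside 42.5%. ALAS1, the enzyme that makes ALA in most cells, averaged 614 ± 71.6 CPM in ConA+ALA cells and 2085 ± 351 CPM in ConA cells, and 467 ± 45.1 CPM in ALA cells and 853 ± 619 CPM in untreated cells (SD, n = 3 each). ConA+ALA against ConA gave −1.76 ± 0.43, lower in all 3 numbers, with an adjusted p of 0.56 in edgeR, 0.12 with the block and 0.014 in DESeq2.

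Markers of several blood cell types were lower with ConA. The summed CPM of the 13 of 14 listed monocyte markers found in the tables was 216 to 559 in ConA+ALA libraries, 214 to 564 in ConA libraries, 450 to 1856 in ALA libraries and 620 to 970 in untreated libraries, and the monocyte gene FCN1 was at 0. Their median log2 fold change was −1.65 for ConA+ALA against ALA and −1.17 for ConA against untreated cells. Of the 12 tested, 1 fell in the first comparison and 3 in the second, beside 8.12 and 18.5% of all genes called, or 8 in each with the block, beside 30.1 and 42.5%.

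T cell markers summed to 1074 to 1475 CPM in ConA+ALA libraries, 1023 to 1421 CPM in ConA libraries, 1479 to 1887 CPM in ALA libraries and 1589 to 2280 CPM in untreated libraries, with no overlap between cells with and without ConA. Of the 13 tested, 1 rose and 7 fell with the block in ConA+ALA against ALA, beside 30.1% of all genes called. In ConA against untreated cells 1 rose and 10 fell, beside 42.5%. Without the block 2 fell in the first comparison, beside 8.12%. In the second 1 rose and 4 fell, beside 18.5%. The median log2 fold changes were −0.53 and −1.01. B cell markers summed to 1833 to 2714 CPM in ConA+ALA libraries, 1441 to 2488 CPM in ConA libraries, 1437 to 2613 CPM in ALA libraries and 1585 to 2725 CPM in untreated libraries. CD79A alone made up 1609 to 2154 CPM of the sum in ConA+ALA libraries and 1289.5 to 2075 CPM in ConA libraries. It made up 1103 to 1925 CPM in ALA libraries and 1328 to 1883 CPM in untreated libraries, so the sums mostly reflect this gene. Of the 9 tested, 1 rose and 3 fell with the block in ConA+ALA against ALA, beside 30.1% of all genes called. In ConA against untreated cells 7 fell, beside 42.5%. Without the block none was called in the first comparison and 2 fell in the second, beside 8.12 and 18.5%. The median log2 fold changes were −0.41 and −1.13.

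Summed neutrophil markers were 713 to 2409 CPM in ConA+ALA libraries, 109 to 156 CPM in ConA libraries, 309 to 2345 CPM in ALA libraries and 286 to 435 CPM in untreated libraries. MMP9 alone made up 784, 570 and 2324 CPM of the sum in ConA+ALA libraries and 2243 CPM in ALA library 3. Without MMP9 the sums were 85.4 to 143 CPM in ConA+ALA libraries, 39.4 to 79.4 CPM in ConA libraries, 102 to 269 CPM in ALA libraries and 121 to 303 CPM in untreated libraries. Of the 7 tested, 3 fell with the block in ConA+ALA against ALA, beside 30.1% of all genes called. In ConA against untreated cells 6 fell, beside 42.5%. Without the block 1 fell in the first comparison and 3 in the second, beside 8.12 and 18.5%. Summed red cell markers were 64.7 to 186 CPM in ConA+ALA libraries, 42.9 to 110 CPM in ConA libraries, 91.0 to 231 CPM in ALA libraries and 130 to 202 CPM in untreated libraries. In ConA+ALA against ConA the median log2 fold change was 1.03 for neutrophil, 0.82 for red cell and 1.21 for platelet markers (4 tested). It was 0.23 for monocyte, 0.12 for T cell and 0.18 for B cell markers. In ALA against untreated cells these medians were −0.06, 0.25, 0.40, 0.30, −0.24 and −0.08. None of these markers was called in either comparison without the block. With it 1 neutrophil and 1 monocyte marker rose in the first, beside 0.554% of all genes called. The part of these markers in the values of HMOX1, BLVRA, BLVRB, FTL, CD163 and the others was not tested.

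Some of the gene rows varied together across the 12 libraries, which share treatment groups and numbers, so the values are a description. The Pearson correlation of log2 CPM was 0.927 between BLVRA and FTL, 0.900 between BLVRA and BLVRB and 0.890 between BLVRB and FTL. TFRC ran opposite to BLVRB at −0.770 and with HMOX2 at 0.827. These are among the strongest values, and other pairs were near 0, as FTL with IREB2 (0.060) and TFRC with FTH1_1 (0.074). The 2 ferritin heavy chain rows, most of whose reads were not unique, correlated at 0.245 over the libraries and at 0.965 after the mean of each number was subtracted. Among 10073 genes the pattern most like TFRC was that of POLR1A (0.990), XPOT (0.989), NOL6 (0.986) and MDN1 (0.986). The pattern most like HMOX1 was that of ADGRF5 (0.923), IFIT5 (0.914), PLXDC2 (0.910) and PHF3 (0.906). After the mean of each number was subtracted, the most alike were FTSJ3, MARS, STOML2 and MRRF for TFRC (0.994 to 0.997) and WWC3, NREP, TRIP11 and KIAA1211L for HMOX1 (0.950 to 0.961).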

How the data were processed

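Per the labels' protocols, poly(A) RNA was sequenced from both ends at 75 bp. Build CanFam3.1 and bcl2fastq are named in the submitters' processing notes. Aligner, counting tool and strand use are not given in the sources used. Per the file headers, each of the 12 tables holds counts of exon reads (total and unique), intron reads and junction reads per gene, and the authors' TPM, with the fraction of unique reads and of intron reads. Those fractions were recomputed from the deposited counts and are printed as percentages. The members and gene lists were chosen with earlier results of these data known.

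Total exon counts of all genes were fitted with edgeR 4.0.16 in R 4.3.3 (TMM, filterByExpr, robust quasi-likelihood F-test), 12 libraries and 4 group means in 1 model, adjusted over the 13358 genes kept. The script was tested on simulated data. An interval of 2 SE either side is given for differences. Replicate numbers pair the samples: 18 pairs with the same number correlated at 0.376 to 0.748 in their deviations from group means, 36 others at −0.498 to 0.206. The biological coefficient of variation was 0.422, or 0.217 with the number as a block. All members were named whatever their result, with up to 6 genes per other list by smallest p and the 4 genes most like HMOX1 and TFRC. Alternatives included DESeq2 1.42.0 and limma 3.58.1; Python 3.11.15 and scipy 1.17.1 were used for exact tests. No column lacked a sample. Not every gene taken from the other lists is reported here.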

Additional observations from a re-analysis of the deposited data

How the results depend on the processing

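Of 1628 refitted fold changes of the 11 rows, none changed sign while called, 108 changed sign while called in neither fit, 28 lost a call and 29 gained one. For members called, ConA+ALA against ALA (2) became 5 with the replicate block, 6 in DESeq2, 4 at a mean of at least 50 counts, 1 with no filter (BLVRB) and 1 with total gene reads (SLC11A2), while the compared groups alone gave 2 others (HMOX1 and TFRC); averaged ALA (0) became 1 with the block and in DESeq2. No share of all genes called is given for the filter, gene-read and compared-group counts of ConA+ALA against ALA. Those counts therefore have no background beside them. In edgeR TFRC was also called there with unique exon reads (adjusted p = 0.0488) and with DESeq2 size factors (0.0495). In ConA against untreated cells BLVRA was called at a mean of at least 50 counts (0.035) and SLC11A2 with total gene reads (0.027). The block changed no call of a member beyond those given above. For all genes called, it gave 6 for ALA against untreated cells, 74 for ConA+ALA against ConA, 103 for averaged ALA, 5676 for ConA (2471 without) and 4022 for ConA+ALA against ALA (1085 without). DESeq2 gave 4, 49, 59 and, for ConA+ALA against ALA, 1830, with 4 for the interaction. For ConA+ALA against ConA, no filter and total gene reads each gave 2 and the compared groups alone 3; for averaged ALA, limma-voom gave 1, no filter 2 and total gene reads 3; for ConA, the compared groups alone gave 1614. Averaged ALA and the interaction use all groups, so have no such fit. Leaving out 1 library or number, members called ranged over 0 to 3 for ConA and 0 to 4 for ConA+ALA against ALA, and genes called over 0 to 6 for ConA+ALA against ConA, 0 to 8 for averaged ALA, 55 to 2467 for ConA, 0 to 1184 for ConA+ALA against ALA and 0 to 1 for the interaction. For ConA, members called fell to 1 without untreated library 2, ConA library 1 or number 3, and to 0 without number 2. With the replicate block (left out after the data were seen), members ranged over 0 to 2 for averaged ALA, 2 to 5 for ConA and 1 to 7 for ConA+ALA against ALA, and genes over 0 to 18 for ALA, 7 to 171 for ConA+ALA against ConA, 19 to 159 for averaged ALA, 3627 to 5739 for ConA, 2096 to 4218 for ConA+ALA against ALA and 0 to 21 for the interaction. With intron reads, also chosen after the data were seen, members called ranged over 0 to 2 for ConA and 0 to 1 for ConA+ALA against ALA, and with the block over 0 to 1 for ALA, 0 to 1 for ConA+ALA against ConA, 1 to 2 for averaged ALA, 2 to 4 for ConA and 3 to 6 for ConA+ALA against ALA. With all libraries, intron reads called 7.3% of all genes for ConA and 1.52% for ConA+ALA against ALA. With the block these shares were 32.5 and 20.8%. The blocked shares were 0.0327% for ALA, 0.712% for ConA+ALA against ConA and 0.699% for averaged ALA. The cause of the changes in calls was not tested. Depth limits SLC40A1 and the HMOX1 intron reads most, and ferritin values rest mostly on reads not counted as unique.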
